A study of Mus musculus with 6 samples.

Results

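Amino acid transporters carry amino acids and their relatives across the plasma membrane and the lysosomal membrane and are grouped into families by sequence. The Slc1 carriers and many Slc6 and Slc38 carriers are driven by sodium, some Slc36 carriers by protons, and the Slc43 carriers work by facilitated diffusion. Several Slc7 proteins are light chains, which reach the cell surface only when joined by a disulphide bond to the heavy chain Slc3a2 or Slc3a1. In skin, these carriers are known to supply keratinocytes and hair follicles with leucine, glutamine, arginine, cystine and serine, and to take up osmolytes such as taurine.

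The genes described here are the rows of the deposited count table whose symbol begins with Slc1a, Slc3a, Slc6a, Slc7a, Slc36a, Slc38a or Slc43a and a number, and that reached 1 CPM (the count scaled to the library total) in 3 or more libraries. Of 60 rows with such a symbol, 42 passed this filter, out of 15009 of 26814 rows in the whole table. Among the 42 is Slc7a6os, which lies beside Slc7a6 on the other strand and does not encode a transporter, so that 41 transporter genes were described. The rule names Slc6a19 because its lower level in the KO was known beforehand, so its call is not independent of the choice of genes. Slc6a2 and Slc6a4, which carry noradrenaline and serotonin, Slc6a8, which carries creatine, and Slc43a3, which carries purine bases, belong to these families by sequence and not by substrate.

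RNA was taken from the top lip of adult female mice on the C57BL/6J background, 3 carrying the targeted Gtf2ird1 allele (Gtf2ird1tm1Hrd, KO) and 3 wild type (WT), with 1 library per mouse. The total counts on genes ranged from 20164081 in KO1 to 29491767 in KO2. Gtf2ird1 itself had 70.2 to 78.2 CPM in the WT libraries and 144 to 166 CPM in those labelled KO (log2 fold change 1.11, adjusted p = 0.0018 by edgeR's quasi-likelihood test). Counts of the targeted gene were thus higher in the KO libraries, and the cause was not tested. Every direction below is that of the libraries labelled KO. The methods of the study state that the genotype of each mouse was checked again on a tail biopsy, and counts over the whole gene do not show which part of the transcript they come from. The dissected lip holds epidermis, hair follicles, dermis, muscle, nerve and fat. Of the marker lists for these cells, the 12 skeletal muscle genes summed to between 12653 and 16060 CPM in the WT and between 6231 and 9829 CPM in the KO libraries, with 2 called lower. All 11 hair follicle markers tested had negative log2 fold changes, 4 of them called lower, and 2 of 7 markers of wounded or hyperproliferative keratinocytes were called higher. Over all tested genes 2.09% were called lower and 4.38% higher, and 52% had negative log2 fold changes. In whole tissue, fewer cells of a type and less RNA per cell cannot be told apart.

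The promoter sequences below belong to transporters on which the results turn, 3 that were called lower in the KO libraries and Slc7a11, which had the highest log2 fold change of the 41. They are the 250 bases before the RefSeq start of each gene (GRCm38.p6), written 5′ to 3′ on the strand of the gene, and the capitals mark matches to any of 3 short motifs on either strand. These were TGATGNAA, the core of the C/EBP-ATF element through which amino acid shortage acts on many genes, TGACNNNGC, the core of the antioxidant response element, and GGATTA, a core bound by GTF2IRD1.
Slc6a19, chr13:73692637-73692886, minus strand: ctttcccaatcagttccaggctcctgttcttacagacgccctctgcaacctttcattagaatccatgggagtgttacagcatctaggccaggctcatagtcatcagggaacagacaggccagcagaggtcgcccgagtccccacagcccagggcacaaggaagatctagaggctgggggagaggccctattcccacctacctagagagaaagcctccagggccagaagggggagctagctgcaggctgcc
Slc7a8, chr14:54781887-54782136, minus strand: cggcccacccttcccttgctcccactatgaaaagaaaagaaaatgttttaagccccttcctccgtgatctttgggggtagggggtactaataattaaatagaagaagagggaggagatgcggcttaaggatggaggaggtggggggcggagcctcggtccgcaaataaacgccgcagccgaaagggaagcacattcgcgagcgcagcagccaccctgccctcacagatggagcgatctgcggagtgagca
Slc43a1, chr2:84840073-84840322, plus strand: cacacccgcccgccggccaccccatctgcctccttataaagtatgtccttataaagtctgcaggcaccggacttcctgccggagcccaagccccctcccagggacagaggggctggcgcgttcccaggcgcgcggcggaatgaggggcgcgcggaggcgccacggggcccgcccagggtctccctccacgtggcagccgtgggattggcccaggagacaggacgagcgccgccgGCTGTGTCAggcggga
Slc7a11, chr3:50443614-50443863, minus strand: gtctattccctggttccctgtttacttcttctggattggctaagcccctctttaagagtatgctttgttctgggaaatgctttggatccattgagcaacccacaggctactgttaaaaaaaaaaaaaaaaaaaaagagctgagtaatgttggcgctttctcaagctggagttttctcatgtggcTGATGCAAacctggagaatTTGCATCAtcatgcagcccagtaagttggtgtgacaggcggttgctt

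The Slc7a11 promoter held TGATGNAA on each strand, at 66 and 47 bases before the start, and these matches did not overlap. Over windows of 300 bases, which run to 50 bases past the start, 3.97% of 32851 RefSeq promoters held this motif. The 28 transporters with a window had 42 windows, of which 4 held it, in Slc1a4, Slc7a7 and Slc7a11. Slc43a1 held TGACNNNGC on its other strand, 16 bases before the start. That motif was in 12.4% of all windows and in 9 of the 42 transporter windows, which belong to 7 genes. GGATTA was in 7.06% of all windows and in 2 of the 42, in Slc6a13 and Slc6a14. No match to any of the 3 motifs fell in the windows of Slc6a19 and Slc7a8. These are matches of letters only, and none was tested for binding. The RefSeq starts of Slc6a19, Slc7a8 and Slc43a1 lie within the longer GENCODE genes whose ends are given with the values.

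The genotypes were compared with edgeR's quasi-likelihood F test across all 15009 genes, with Benjamini-Hochberg adjustment over all of them and a threshold of 0.05. Of the 41 transporters, 4 were called lower in the KO libraries, Slc6a19, Slc7a8, Slc38a3 and Slc43a1, and 0 were called higher. The rule names Slc6a19 as lower in the KO, so its place in each count of lower transporters was known beforehand. Over all tested genes 2.09% were called lower and 4.38% higher. With an unadjusted p under 0.05 there were 11 transporters lower and 3 higher, against 16% and 13.5% of all genes. DESeq2's Wald test and edgeR's exact test each called Slc7a11 and Slc38a6 higher, and Slc6a4 lower in addition to the same 4 genes. Over all genes the exact test called 7.76% higher and 7.15% lower, and DESeq2 called 8.93% higher and 5.31% lower. The transporters had a median log2 fold change of -0.22 against -0.02 for all tested genes, and 27 of the 41 values were negative, against 52% of all. The genotypes did not overlap in 13 transporters, close to the 31.5% of all genes for which this held. In 11 of them the KO values lay below the WT values and in 2 above, where 18.1% and 13.5% of all genes did so.

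KO3 stood nearer to the WT mean than KO1 and KO2 in 21 of the 41 transporters and in 57.1% of all genes. Without KO3, 10 transporters were called lower and 4 higher, against 16.2% and 16.9% of all genes in that fit. The 10 were the 4 above with Slc3a2, Slc43a2, Slc6a17, Slc6a2, Slc6a4 and Slc7a7, and the 4 were Slc7a11, Slc6a14, Slc38a6 and Slc36a4. Without any other single library, Slc6a19 was the only transporter called. Over all genes those fits called 18 to 62 lower, against 314 with all libraries, and 208 to 476 higher, against 657.

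**Figure D1:**
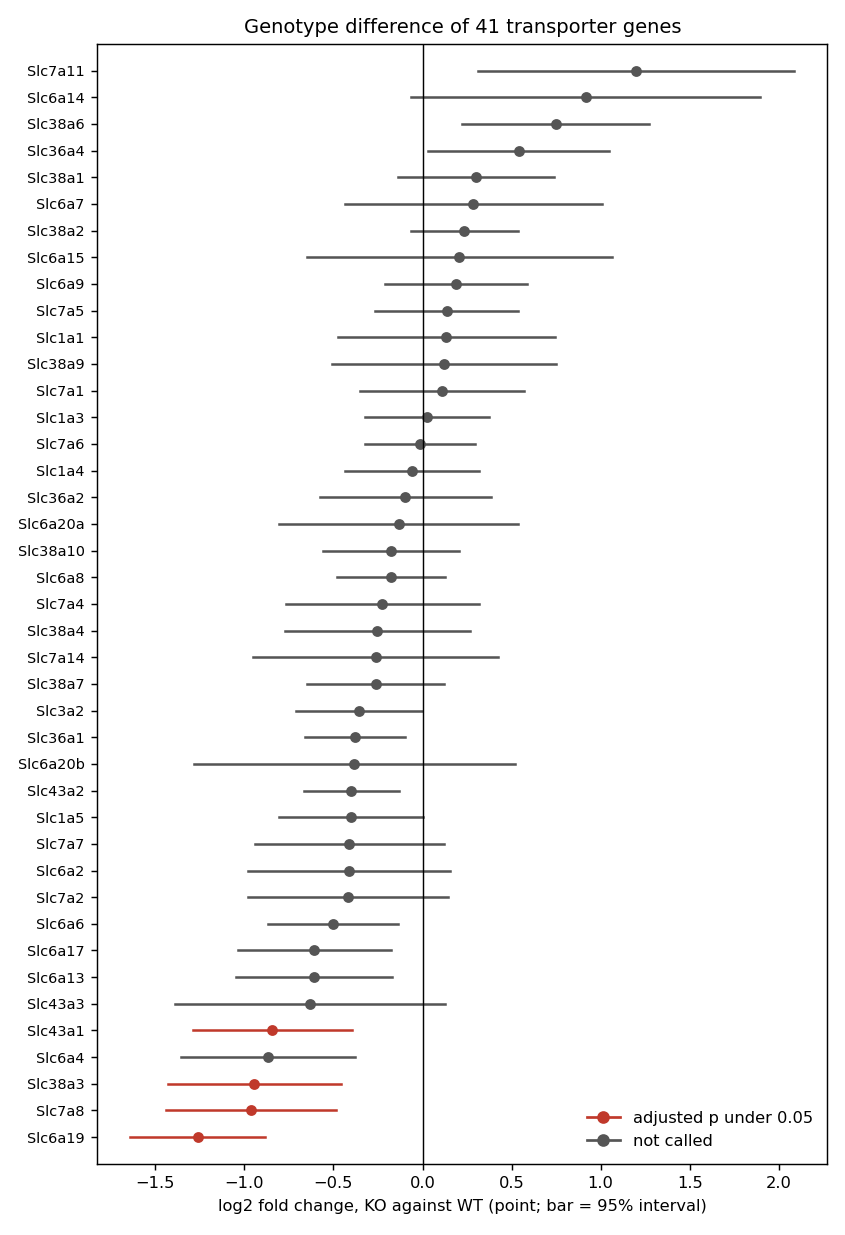
Log2 fold change of the libraries labelled KO against WT (horizontal axis) for the 41 transporter genes, ordered by size, with the 95% interval of edgeR's quasi-likelihood fit as a bar (n = 3 libraries per genotype). The 4 genes called at an adjusted p under 0.05, drawn in red, run from -1.26 for Slc6a19 to -0.84 for Slc43a1, with the uncalled Slc6a4 among them at -0.87, and Slc7a11 is at the upper end at 1.20.

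Size and precision differed widely within the families. In 26 of the 41 genes the 95% interval lay wholly within a 2-fold change in either direction, close to the 67.3% of all tested genes for which this held. Among these were the 4 cationic carriers and relatives and the 4 Slc1 genes. Among the widest was that of Slc6a20b, whose log2 fold change of -0.38 had an interval from -1.28 to 0.52. Slc6a20b was also the member closest to the filter, with at least 1 CPM in 5 of 6 libraries, its exons share 1800 bases with Sacm1l on the other strand, and reads may be split between it and its near copy Slc6a20a.

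Slc6a19 encodes the sodium-dependent carrier that takes up neutral amino acids in intestine and kidney. It lies on chromosome 13, 73679745 to 73704865, on the minus strand (GRCm38), and overlaps the antisense gene Slc6a19os without sharing exon bases. Its level was 58.5, 45.6 and 41.4 CPM in WT1, WT2 and WT3, and 21.5, 19.9 and 19.3 CPM in KO1, KO2 and KO3. The genotypes did not overlap, the WT mean being 48.5 ± 8.88 CPM and the KO mean 20.2 ± 1.18 CPM (SD, n = 3). This was a log2 fold change of -1.26 (adjusted p = 0.00345, standard error 0.16), and the KO mean differed from the WT mean by -58.3%. KO3 was the lowest of the 6 libraries here. Slc6a19 was the only transporter that kept its call with each of the 6 libraries left out in turn, at log2 fold changes from -1.37 to -1.11 and adjusted p-values up to 0.0455.

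The study's primer pair for Slc6a19, shown because it marks the part of the transcript that its quantitative PCR reads, was placed on the GENCODE transcripts. The forward primer falls in exon 6 and the reverse primer in exon 7 of a transcript with 12 exons, both within the coding sequence, and together they frame 105 bases of spliced RNA.
Forward, chr13:73689100-73689120: caggtgctcaggtcttctact
Reverse, chr13:73686166-73686188: cgatcacagaatccatctcacaa

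The neighbour Slc6a18, which lies next to Slc6a19 in the genome, had 6 to 11 counts per library and did not pass the filter. Tmem27, the collectrin that brings Slc6a19 to the surface of kidney cells, had 0 to 2 counts.

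**Figure D2:**
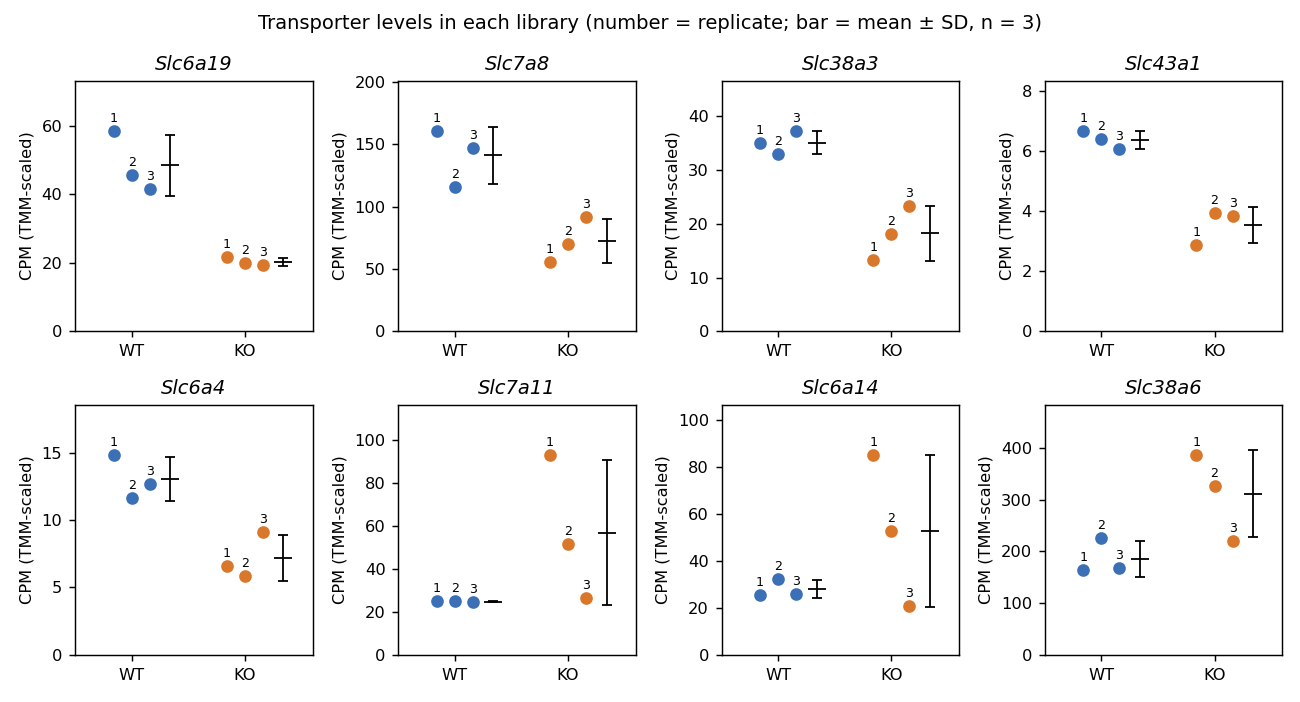
Level in each library (CPM after TMM scaling, vertical axes from 0) of the 4 called transporters and of Slc6a4, Slc7a11, Slc6a14 and Slc38a6, with WT in blue, KO in orange, the replicate number above each point and a bar for the mean ± SD (n = 3). Slc6a19 is low in all 3 KO libraries, whereas Slc7a11 runs from 93.3 CPM in KO1 to 26.3 CPM in KO3, next to the WT.

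The other epithelial, glycine and proline carriers of Slc6 were not called. Slc6a14, the broad carrier of neutral and cationic amino acids, had 25.5, 32.5 and 25.9 CPM in the WT libraries and 85.2, 52.8 and 20.6 CPM in KO1, KO2 and KO3. KO1 and KO2 lay above all WT libraries and KO3 below them, and the log2 fold change of 0.92 had an interval from -0.06 to 1.90 (adjusted p = 0.189). The 8 suprabasal and cornified keratinocyte markers, of which 1 was called higher, summed to 21699 to 26387 CPM in the WT and to 49967, 42622 and 32968 CPM in KO1 to KO3, and their part in the result was not tested. Slc6a17, a vesicular carrier of neurons, was at 4.97 to 5.80 CPM in the WT and 3.16 to 3.93 CPM in the KO libraries without overlap (log2 fold change -0.61, adjusted p = 0.0855). The glycine transporter Slc6a9, the proline carriers Slc6a7 and Slc6a20a and the neuronal carrier Slc6a15 had log2 fold changes between -0.13 and 0.28.

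Slc3a2, the shared heavy chain, stood at place 2 of the transporters in level per kilobase by the WT mean and at place 5 by the KO mean. It had 183, 156 and 181 CPM in the WT and 121, 124 and 160 CPM in the KO libraries. KO3 lay within the WT range, and the log2 fold change of -0.36 did not pass (adjusted p = 0.166). The other heavy chain, Slc3a1, had 1 to 7 counts per library and was not tested. Slc7a8, which exchanges large and small neutral amino acids, was at 161, 116 and 147 CPM in WT1 to WT3 and at 55.8, 70.3 and 91.3 CPM in KO1 to KO3 (chromosome 14, 54722209 to 54781946, minus strand). Every KO library lay below every WT library, at a log2 fold change of -0.96 (adjusted p = 0.0361, standard error 0.21). The call was kept in 1 of the 6 fits with a library left out, the fit without KO3, and the adjusted p lay between 0.0595 and 0.18 in the others.

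Slc7a11, the cystine-glutamate exchanger that feeds glutathione synthesis, stood out by its spread in the KO libraries. The 3 WT libraries were almost equal, at 25.0, 24.9 and 24.5 CPM, while KO1 had 93.3, KO2 51.5 and KO3 26.3 CPM. All KO values were above all WT values, but KO3 only just, and the log2 fold change of 1.20 had an interval from 0.31 to 2.09 (adjusted p = 0.0925). Without KO3 it was 1.55 with an adjusted p of 0.00161. The summed level of the 7 wounding and hyperproliferation markers moved in the same libraries, at 9547 CPM in KO1, 7438 in KO2 and 6088 in KO3 against 3929 to 5691 in the WT, and their part in the result was not tested.

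Slc7a5, the leucine carrier that is commonly raised in dividing cells, had 72.1, 75.2 and 57.8 CPM in the WT and 65.6, 68.5 and 91.4 CPM in the KO libraries. Here KO3 was the highest and the genotypes overlapped (log2 fold change 0.14, interval -0.26 to 0.54, adjusted p = 0.623), and the sign turned without KO3 (-0.02). Slc7a6, which exchanges arginine for neutral amino acids with sodium, was nearly level, at 40.3 ± 0.129 CPM in the KO and 40.7 ± 4.53 CPM in the WT libraries (log2 fold change -0.01, interval -0.32 to 0.29). Slc7a7, of the same kind, was at 8.78 to 9.89 CPM in the WT and at 5.12, 6.64 and 9.28 CPM in KO1, KO2 and KO3 (log2 fold change -0.41, adjusted p = 0.264). Its exons share 232 bases with Oxa1l on the other strand.

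To compare levels between these genes, CPM was divided by the kilobases of merged exon (RPKM). The 5 light chains tested summed to 65.0, 57.8 and 57.6 RPKM in the WT and 45.9, 47.1 and 56.4 RPKM in the KO libraries, beside 44.1 to 51.7 and 34.3 to 45.5 RPKM for Slc3a2. Slc7a8 made up 49.3%, 40.0% and 51.1% of that sum in WT1 to WT3 and 24.3%, 29.8% and 32.4% in KO1 to KO3, without overlap. Slc7a5 made up 27.1% to 35.1% in the WT and 38.5% to 43.7% in the KO libraries. The level of Slc7a8 was thus above that of Slc7a5 in each WT library and below it in each KO library. These shares were chosen for description after the values had been seen, and they carry no test of their own.

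**Figure D3:**
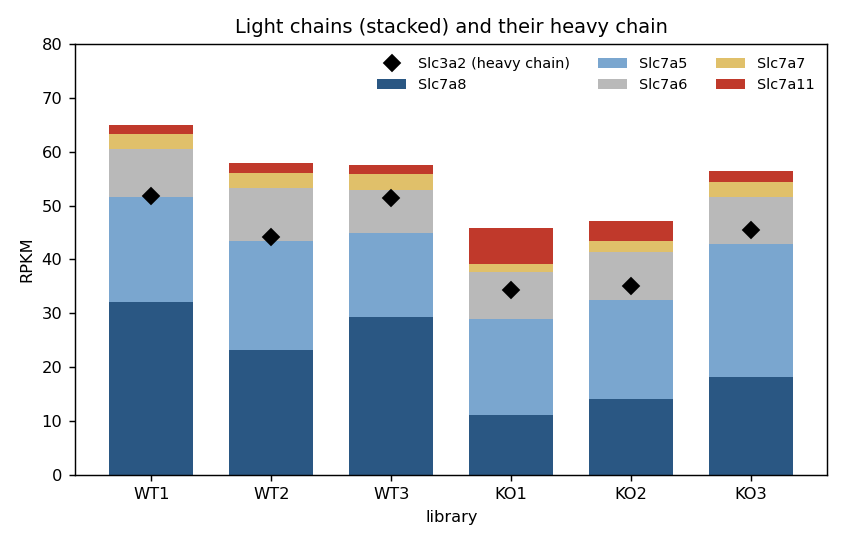
Stacked levels of the 5 tested light chains in each of the 6 libraries (RPKM, vertical axis from 0), with the heavy chain Slc3a2 as black diamonds. The Slc7a8 block shrinks from 23.1 to 32.1 RPKM in the WT to 11.2 to 18.2 RPKM in the KO libraries, and the Slc7a11 block is widest in KO1, at 6.70 RPKM.

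Among the cationic carriers, Slc7a1, the main arginine and lysine carrier, had 79.6 to 88.6 CPM in the WT libraries and 78.2, 70.6 and 119 CPM in KO1, KO2 and KO3. Slc7a2, an arginine carrier of macrophages and liver, had 25.9, 43.1 and 22.4 CPM in the WT and 20.9 to 23.8 CPM in the KO libraries, and its exons share 635 bases with Gm26584 on the other strand. Neither passed (log2 fold changes 0.11 and -0.42, adjusted p = 0.744 and 0.276), and the genotypes overlapped in both. Slc7a4 and Slc7a14, relatives for which transport at the cell surface is not established, lay at 1.74 to 3.52 CPM in all libraries.

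The Slc38 carriers include the sodium-coupled glutamine transporters. Slc38a3, which moves glutamine, asparagine and histidine and can run in either direction (chromosome 9, 107650634 to 107669530, minus strand), was at 35.1, 32.9 and 37.3 CPM in WT1 to WT3 and at 13.2, 18.1 and 23.4 CPM in KO1 to KO3. The genotypes did not overlap, and the log2 fold change of -0.94 passed (adjusted p = 0.0396, standard error 0.21). As for Slc7a8, the call was kept in the fit without KO3 alone of the 6, with adjusted p-values of 0.085 to 0.192 in the others. In Slc7a8 and Slc38a3 the KO libraries were in the order KO1, KO2, KO3 from low to high, and so were the summed levels of 7 of the 14 marker lists. Among them was the hair follicle list, at 5784 to 7238 CPM in the WT and 3589, 4489 and 4900 CPM in KO1, KO2 and KO3. In 4 lists, skeletal muscle among them, KO2 was lowest and KO3 highest, in the adipocyte list KO2 was lowest and KO1 highest, and in the 2 lists of suprabasal and wounded keratinocytes the order was the reverse. The part of these cells in the result was not tested.

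Slc38a2, the carrier that is known to rise with amino acid shortage and with osmotic stress, was the gene of this family with the highest level. It had 325, 357 and 296 CPM in the WT and 381, 389 and 381 CPM in the KO libraries. The KO values were close together and above all WT values, yet the difference was small (log2 fold change 0.23, interval -0.07 to 0.53, adjusted p = 0.261). Slc38a6, whose substrate is less settled, had 163, 226 and 167 CPM in the WT and 387, 326 and 221 CPM in the KO libraries. KO3 lay just below WT2, so that the genotypes overlapped, and the log2 fold change was 0.75 (interval 0.22 to 1.27, adjusted p = 0.0836).

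Slc38a9, the lysosomal arginine sensor of the mTORC1 pathway, had 19.0 to 26.7 CPM in the WT and 30.6, 27.0 and 14.6 CPM in KO1, KO2 and KO3 (log2 fold change 0.12, adjusted p = 0.79). Slc38a7, a lysosomal exporter of glutamine, and Slc38a10 had log2 fold changes of -0.26 and -0.18. Slc38a1 and Slc38a4, further system A carriers, were at 2.60 to 7.91 CPM in all libraries and did not pass.

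The Slc43 genes all had negative values. Slc43a1, which carries leucine and other large neutral amino acids without sodium (chromosome 2, 84838850 to 84863594, plus strand), was at 6.68, 6.42 and 6.07 CPM in WT1 to WT3 and at 2.87, 3.95 and 3.84 CPM in KO1 to KO3. The genotypes did not overlap, at a log2 fold change of -0.84 (adjusted p = 0.0442, standard error 0.19). The call was kept in 5 of 10 other settings and in 1 of 6 fits with a library left out, the fit without KO3. Slc43a2, of the same function and at a higher level, had 77.4, 71.5 and 72.1 CPM in the WT and 57.1, 53.5 and 57.1 CPM in the KO libraries. Its genotypes were also apart and its interval of -0.67 to -0.13 excluded 0, but the adjusted p was 0.0784. Its exons share 922 bases with the antisense gene Gm45606. Slc43a3 ranged from 10.7 to 24.4 CPM in the WT libraries and overlapped with the KO.

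Of the carriers of taurine, GABA and creatine, Slc6a6 was the transporter with the highest level of all. This taurine carrier had 616, 660 and 489 CPM in the WT and 397, 451 and 397 CPM in the KO libraries. The genotypes did not overlap (log2 fold change -0.50, interval -0.87 to -0.14), and the adjusted p of 0.0901 missed the threshold. Slc6a13, a GABA and taurine carrier, was at 5.19 to 6.70 CPM in the WT and 3.62 to 4.25 CPM in the KO libraries (log2 fold change -0.61, adjusted p = 0.0882). The creatine carrier Slc6a8 overlapped, at 213 to 256 CPM in the WT and 194 to 221 CPM in the KO libraries (log2 fold change -0.18, adjusted p = 0.388).

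The serotonin carrier Slc6a4 missed the threshold by the least. It had 14.8, 11.6 and 12.7 CPM in the WT and 6.60, 5.82 and 9.10 CPM in the KO libraries, without overlap (log2 fold change -0.87, adjusted p = 0.0516). Mast cells and nerve endings are among the cells that use it. Of the 7 mast cell markers 6 had negative log2 fold changes, and the list summed to 204 to 258 CPM in the WT and 147 to 193 CPM in the KO libraries. By edgeR's quasi-likelihood test 0 of them were called, and 4 were lower at an unadjusted p under 0.05, as were 16% of all genes. The 6 Schwann cell and nerve markers all had negative values, with 0 called and 3 lower at that p. They summed to 487 to 509 CPM in the WT and to 280, 245 and 431 CPM in KO1, KO2 and KO3. The part of these cells in the result was not tested. The noradrenaline carrier Slc6a2 overlapped through KO3, which had 23.9 CPM against 14.9 and 13.7 CPM in KO1 and KO2.

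The Slc36 carriers went in different directions. Slc36a1, which exports small amino acids from lysosomes, had 65.8, 63.8 and 61.7 CPM in the WT and 46.8, 52.9 and 47.2 CPM in the KO libraries, without overlap (log2 fold change -0.38, adjusted p = 0.0917). Slc36a4, a carrier of proline and tryptophan, had 37.2, 50.5 and 34.9 CPM in the WT and 70.2, 65.0 and 43.1 CPM in the KO libraries, overlapping through KO3 (log2 fold change 0.54, adjusted p = 0.151). Slc36a2, a glycine and proline carrier, had a log2 fold change of -0.10.

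Of the Slc1 genes, Slc1a5, a glutamine carrier of dividing cells, had 63.0, 81.8 and 62.0 CPM in the WT and 56.4, 42.5 and 57.9 CPM in the KO libraries. The values did not overlap, but WT3 and KO3 were close, and the log2 fold change was -0.40 (adjusted p = 0.173). Slc1a4, which carries alanine and serine, had an interval of -0.44 to 0.32 around -0.06. The glutamate carriers Slc1a3 and Slc1a1 had log2 fold changes of 0.02 and 0.13, and the exons of Slc1a1 share 2631 bases with 4430402I18Rik on the other strand.

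Ordered by the WT mean per kilobase, Slc6a6 was at the head with 69.6 ± 10.5 RPKM (SD, n = 3), above every WT value of the next gene. Slc3a2 followed with 49.0 ± 4.30 and Slc6a8 with 44.6 ± 4.15 RPKM, whose WT values overlapped, then Slc38a2 with 36.9 ± 3.46 RPKM. Slc7a8, at 28.2 RPKM with WT values from 23.1 to 32.1, and Slc38a6, at 23.8 ± 4.47 RPKM, overlapped as well. Slc7a5, Slc38a10 and Slc1a5 lay between 16.5 and 18.4 RPKM and overlapped with one another, and all their WT values were above those of Slc36a1 at 11.3 ± 0.368 RPKM. At the foot, Slc6a15 and Slc6a20b had 0.216 and 0.203 RPKM. By the KO mean Slc38a2 stood at place 2 and Slc38a6 at place 3, while Slc7a8 moved from place 5 to 9 and Slc6a19 from place 12 to 20. Summed over the 41 genes, the level was 440, 435 and 400 RPKM in the WT and 397, 378 and 383 RPKM in the KO libraries. Slc6a6 alone made up 14.4% to 17.9% of it in the WT and 11.8% to 14.1% in the KO libraries.

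**Figure D4:**
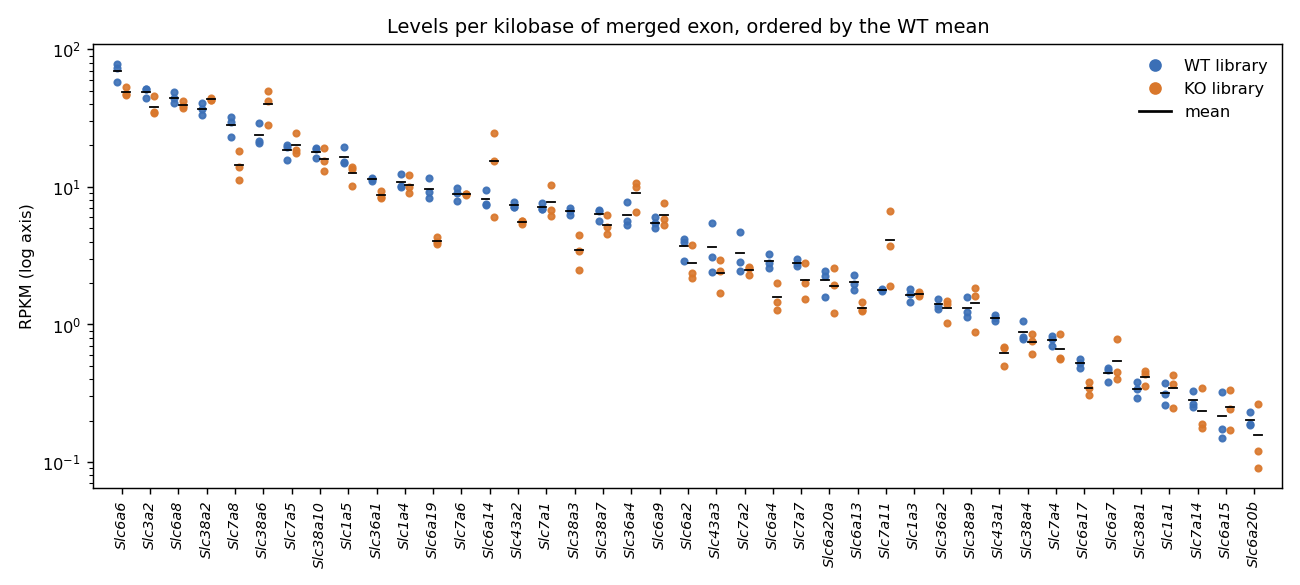
Level of each of the 41 transporters per kilobase of merged exon (RPKM, log axis), ordered by the WT mean, with a point for each library (WT blue, KO orange) and a line at each mean (n = 3). Levels span from 69.6 RPKM for Slc6a6 to 0.203 RPKM for Slc6a20b in the WT, and the KO points of Slc6a19 and Slc43a1 lie below their WT points.

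A further 18 rows matched the symbols but not the filter. Just outside it were Slc7a10, with 12 to 34 counts per library and at least 1 CPM in 2 libraries, and Slc38a11 and Slc7a15, which reached it in 1 library each. Just inside were Slc6a20b, Slc6a7 and Slc6a15, at means of 1.53, 1.70 and 1.81 CPM before scaling. The intestinal and renal carrier Slc7a9 had 1 count in KO1 and 0 in the other libraries, and Slc38a5 and Slc38a8 had at most 2 counts in any library. The counting notes do not state whether strand was used, and 11 members share exon bases with a gene on the other strand, though 0 of the 4 called genes do. Of the genes with high levels, Slc6a6 shares 117 bases with Gm44981 and Slc38a10 shares 367 with Gm11769, and reads from such pairs could not be told apart without strand.

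Other genes of amino acid handling were read from 7 lists, in which 9 of 126 genes tested were called, or 7.14%, close to the 6.47% of all tested genes. Without KO3 it was 36, or 28.6%, against 33% of all genes. Of 22 genes of the amino acid response, which is driven by the factor Atf4, Asns and Psat1 were called higher and 0 lower, and the list's median log2 fold change was -0.05. Asns, which makes asparagine, had 19.3, 26.9 and 25.6 CPM in the WT and 59.0, 45.3 and 56.2 CPM in the KO libraries (log2 fold change 1.16, adjusted p = 0.00817). Psat1, a step of serine synthesis, had 66.0 to 90.8 CPM in the WT and 134 to 161 CPM in the KO libraries (log2 fold change 0.90, adjusted p = 0.0146). Both were high in KO3 too, unlike Slc7a11. Asns kept its call with each library left out, and Psat1 lost it without WT1 and without WT3, so that the list had 1 call there and 4 without KO3. Atf4 itself had a log2 fold change of -0.06, and Chac1, another target, one of -0.96 that did not pass (adjusted p = 0.105).

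Of 20 genes of glutathione synthesis and the Nrf2 response, Nfe2l2, Nqo1 and G6pdx were called higher and Ggt1 lower, with a median log2 fold change of 0.05. Nfe2l2, which encodes the factor Nrf2, had 109 to 128 CPM in the WT and 222, 238 and 255 CPM in KO1 to KO3 (log2 fold change 1.03, adjusted p = 0.00307). Nqo1, a quinone reductase and classical target, was at 14.1 to 15.5 CPM in the WT and 31.6 to 34.3 CPM in the KO libraries (log2 fold change 1.15, adjusted p = 0.00184). Gclc, which limits glutathione synthesis, and Txnrd1 had log2 fold changes of 0.11 and 0.03. Ggt1, which breaks down glutathione outside the cell, was lower (log2 fold change -0.74, adjusted p = 0.0364). The calls of Ggt1 and G6pdx (adjusted p = 0.0419) were each lost in 5 of the 6 fits with a library left out, all but that without KO3, whereas Nfe2l2 and Nqo1 kept theirs in all 6. The count for this list was 2 in those 5 fits and 7 without KO3. Over all genes those 5 fits called 1.53% to 3.64%, the fit without KO3 33% and the main fit 6.47%.

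Arg2, the mitochondrial arginase, had the highest log2 fold change of the genes in these lists. It had 7.08, 7.99 and 7.24 CPM in the WT and 29.3, 29.1 and 29.7 CPM in the KO libraries (log2 fold change 1.98, adjusted p = 0.000139), and it was the only call among 19 genes of arginine, proline and glutamine metabolism, whose median was -0.17. Of 25 genes of mTORC1 amino acid sensing tested, Rptor, which encodes the scaffold Raptor, was called, and the median was 0.06. It was at 59.0 to 61.1 CPM in the WT and 167 to 185 CPM in the KO libraries (log2 fold change 1.56, adjusted p = 0.000186).

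Of 17 other amino acid carriers tested, Slc25a13, the mitochondrial aspartate-glutamate carrier, was called higher, at 24.6 to 27.7 CPM in the WT and 49.5 to 56.6 CPM in the KO libraries (standard error on the log2 scale 0.13, adjusted p = 0.00345), and the median of this list was -0.28. By edgeR's quasi-likelihood test 0 of 14 genes of branched-chain amino acid breakdown were called, with 5 lower at an unadjusted p under 0.05 and a median of -0.22. Of 9 genes of taurine and creatine synthesis or creatine phosphorylation 0 were called by the same test. At that p 6 were lower and 1 higher, and the median was -0.63. Over all tested genes 16% were lower and 13.5% higher at that p. Without KO3, 5 genes of the former list and 7 of the latter were called, and with edgeR's exact test and DESeq2 2 and 3 genes of the latter. Without KO3 there were also 5 calls each among the arginine, proline and glutamine genes and the other carriers, and 3 in the mTORC1 list. Over all genes 33% were called without KO3, 14.9% with the exact test and 14.2% with DESeq2. The taurine and creatine list includes the creatine kinases Ckm, Ckmt2, Ckb and Ckmt1, which use creatine and do not make it. Of its 6 lower genes Ckm, Ckmt2 and Ckb are kinases, and its 1 higher gene was the kinase Ckmt1. Ckm, the muscle form, is also among the skeletal muscle markers, and the part of muscle in the list's values was not tested.

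**Figure D5:**
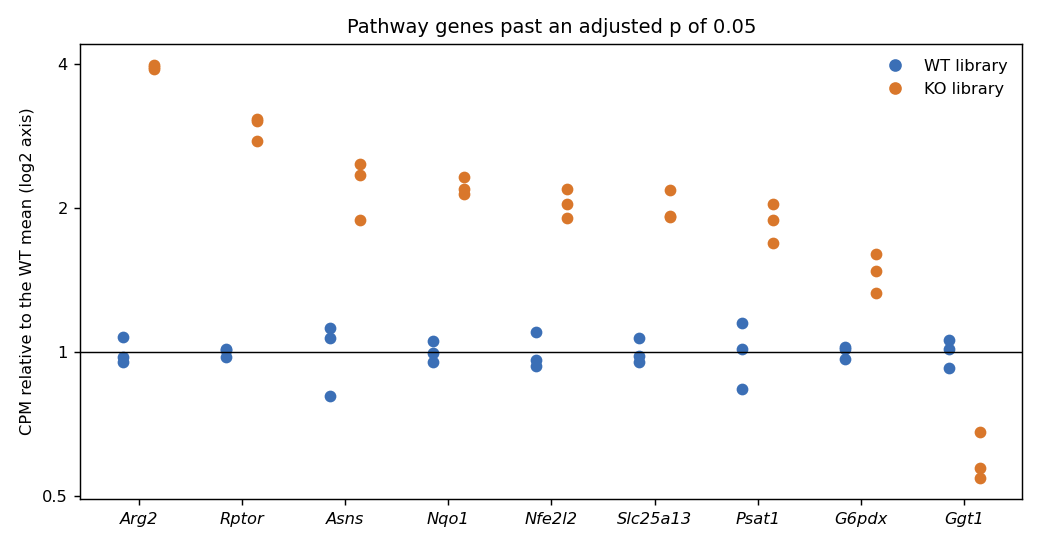
CPM of the 9 called genes of the pathway lists in each library, relative to the WT mean of that gene (log2 axis), with WT in blue and KO in orange. Arg2 lies highest, at 29.1 to 29.7 CPM in the KO libraries against 7.08 to 7.99 CPM in the WT, and Ggt1 is the only gene of the 9 below 1.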

How the data were processed

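The data were counts of RNA-Seq reads per gene symbol from the lip of 3 KO and 3 WT mice. Per the submitters' notes, TopHat2 2.0.8 with Bowtie2 2.1.0 aligned the read pairs (GRCm38), and the raw counts that the authors made with HTSeq were deposited without normalization. Counting mode and strand were not given in the sources used here. All 6 columns were used, with 0 left unused and 0 rows without a gene name.

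The filter was 1 CPM or more in 3 or more libraries, and the genes it kept held 99.8% of the counts. R 4.3.3, edgeR 4.0.16 (TMM scaling, estimateDisp, glmQLFit with legacy=FALSE, glmQLFTest), limma 3.58.1 and DESeq2 1.42.0 were used, and Python 3.11.15 for tables and figures. CPM values are TMM-scaled, and log2 fold changes compare KO with WT. The quasi-likelihood test was the main test for counts, and the exact test of the study's methods was an alternative. Positions and merged exon lengths come from GENCODE M21 (GRCm38), in which 24802 symbols had a single entry, and promoters from RefSeq (GRCm38.p6). The procedure was tested on simulated data.

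The rule for named transporters took all called genes, the 10 next by p, the 10 with the highest mean RPKM, the heavy chains, Slc7a5, Slc7a8, Slc7a11 and Slc6a19, and from the lists the called genes. The other genes named were chosen after their values were seen. The members, lists and tests were chosen with earlier results of these data known. Counts limit precision in genes near 1 CPM, and intervals reflect the spread between 3 mice a genotype. The p-values rest on 1 library per mouse.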

Additional observations from a re-analysis of the deposited data

How the results depend on the processing

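Slc6a19 was called lower under all 10 other settings and with each library left out. The count of 0 transporters higher became 2 with edgeR's exact test and 2 with DESeq2's Wald test, and ranged from 0 to 4 with a library left out, where 4 was without KO replicate 3. The count of 4 lower became 2 with no filter, ranged from 1 to 10 with a library left out (10 without KO replicate 3, and 1, Slc6a19, without any other), and was 3 to 5 otherwise. Over all genes 314 were called lower in the main fit, 2395 without KO replicate 3 and 18 to 62 without any other library. At an adjusted p under 0.1, a threshold added after the data had been seen, 2 were higher and 10 lower. Of the pathway lists 9 genes were called (7.14%, all genes 6.47%), 14 with the exact test (11.1%, all genes 14.9%), 15 with DESeq2 (11.7%, all genes 14.2%), 19 at an adjusted p under 0.1 (15.1%, all genes 16.8%), and from 6 to 36 with a library left out, 36 (28.6%, all genes 33%) being without KO replicate 3. The sign turned for Slc7a5 without KO replicate 3 and for Slc38a10 without KO replicate 1, neither called. With a library left out, the log2 fold change ranged from -0.023 to 0.29 for Slc7a5 and from -0.33 to 0.0081 for Slc38a10. The cause of these changes was not tested.

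The labels do not say whether same-numbered mice of the genotypes were paired. Deviations of same-numbered libraries from their genotype means correlated at -0.19, 0.31 and 0.33 across genes, and not every library correlated best with its own number. With 3 libraries per mean, these correlations cannot show whether there was a pairing. With a replicate block, 0 transporters were higher and 3 lower, Slc43a1 losing its call (adjusted p = 0.0664), and 7 list genes were called, Ggt1 and G6pdx losing theirs (adjusted p = 0.0515 and 0.0651). Median log2 fold changes of all genes lay within -0.08 and 0.03 under the scalings and filters tried.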
